A study of Mus musculus with 6 samples.

Results

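The Notch pathway was examined in sorted mouse astrocytes through 10 genes, chosen by gene symbol from the 45777 genes of the deposited expression table. They were the receptors Notch1, Notch2 and Notch4, the ligands Jag1, Dll1 and Dll4, and the target genes Hes1, Hes5, Hey1 and Hey2. Each had reads in all 6 samples, so 10 of 10 were among the 22337 genes tested. The RNA came from tdTomato-positive astrocytes of male C57BL/6 mice carrying Aldh1l1-CreERT2 and a floxed tdTomato reporter, for which the labels give the genotype only as WT. Tamoxifen, injected on 5 days in every mouse, switched on the reporter in cells with activity of Aldh1l1, which among brain cells marks astrocytes. The vehicle group then received citrate buffer, and the other group a single dose of streptozotocin (STZ) in that buffer, a compound that destroys pancreatic beta cells and so raises blood glucose. Injection was at 8 weeks of age and tissue was collected after 21 days, with STZ mice kept only if their fasting glucose had passed a set limit. Each group had 3 samples, every sample a pool of sorted cells from 3 brains with 52529048 to 58749115 reads counted in genes, and the comparison asked how hyperglycemia altered astrocyte gene expression.

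In Notch signaling a ligand on the surface of a cell binds a receptor on its neighbor, the receptor is cut by a metalloprotease and then by gamma-secretase, and the freed intracellular part enters the nucleus. There it joins the DNA-binding protein Rbpj and switches on genes of the Hes and Hey families, which encode transcriptional repressors. In the brain the pathway is known for keeping neural progenitors undifferentiated and for its part in the formation of astrocytes, and in vessels for setting arterial identity and limiting sprouting.

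Hes5 was the most abundant of these genes in both groups, and Notch4 had the smallest p-value for a difference between them. Of the 10 genes, 0 passed the threshold of an adjusted p under 0.05 with a fold change over 1.5 in edgeR's quasi-likelihood test, where 0.0224% of all genes tested passed, and 0 did so with DESeq2, where 1.05% passed. At an unadjusted p under 0.05, without a fold limit, edgeR and DESeq2 each left 1 gene, Notch4, and with edgeR 5.63% of all genes tested lay under this value as higher in STZ and 5.65% as lower. The median log2 fold change of the 10 genes was 0.17, against 0.01 over all genes tested.

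Upstream sequences from RefSeq (GRCm38.p6) were on hand for 8 of the 10 genes, all but Hes1 and Hey1. Those of Notch4, the gene with the largest difference relative to its error, and of Hes5 and Hey2, the 2 targets that could be searched and whose upstream sequence held the core motif of Rbpj, are shown as the 250 bases before the gene start used in that table, 5′ to 3′ on the strand of the gene. Capitals mark TGGGAA or, for the other strand, TTCCCA. The windows lie at chr17:34564045-34564294 (plus strand, Notch4), chr4:154960673-154960922 (plus strand, Hes5) and chr10:30842784-30843033 (minus strand, Hey2). The starts of that table are not always those of the gene spans given with the values. The Hes5 window lies inside the RefSeq span of the gene, and the Notch4 window ends inside that of Notch4.
Notch4: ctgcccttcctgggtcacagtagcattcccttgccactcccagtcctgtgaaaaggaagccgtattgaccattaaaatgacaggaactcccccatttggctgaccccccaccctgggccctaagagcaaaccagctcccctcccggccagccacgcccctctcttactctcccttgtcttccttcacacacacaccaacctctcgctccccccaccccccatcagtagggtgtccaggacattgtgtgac
Hes5: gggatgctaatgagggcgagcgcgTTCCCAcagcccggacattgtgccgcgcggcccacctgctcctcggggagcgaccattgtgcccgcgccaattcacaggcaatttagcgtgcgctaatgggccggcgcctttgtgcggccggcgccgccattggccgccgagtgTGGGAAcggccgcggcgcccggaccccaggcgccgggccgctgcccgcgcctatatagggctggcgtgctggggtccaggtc
Hey2: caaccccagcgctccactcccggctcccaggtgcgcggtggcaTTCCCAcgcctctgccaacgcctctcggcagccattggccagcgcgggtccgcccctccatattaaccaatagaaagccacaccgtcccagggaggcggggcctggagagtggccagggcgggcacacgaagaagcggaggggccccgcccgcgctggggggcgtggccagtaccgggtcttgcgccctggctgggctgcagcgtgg
Hes5 held the motif at 2 places, beginning 226 and 82 bases upstream of the start, and Hey2 at 1 place, beginning 207 bases upstream. Among the 9 windows of the members, 2 held it, and 21.6% of all 32851 RefSeq windows of this length did. The E-box CACGTG, a sequence bound by several basic helix-loop-helix factors, was in 0 of the 9 windows and in 6.02% of all windows. A match shows the letters only.

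Levels of different genes were compared in the authors' FPKM values, which are scaled to transcript length. Hes5 was the most abundant of the 10, with a mean of 287 FPKM ± 40.0 (SD, n = 6), and 163 of the 22337 genes tested had a higher mean. Hey1 followed with 44.3 FPKM ± 6.49 and Hes1 with 39.8 FPKM ± 6.77 (SD, n = 6). The ranges of Hey1 and Hes1 over the 6 samples overlapped, so their order was not separated by the spread, although Hey1 was above Hes1 in 5 of the 6 samples. Notch1 was the most abundant of the receptors, with 11.4 FPKM ± 1.04, and was above Hey2, with 6.30 FPKM ± 0.552, and Notch2, with 4.32 FPKM ± 0.196, in every sample (SD, n = 6). Jag1 was the leading ligand with 3.56 FPKM ± 0.521. Its range overlapped that of Notch2, although Notch2 was above Jag1 in 6 of the 6 samples. At the low end stood Notch4 with 1.59 FPKM ± 0.366, Dll1 with 0.951 FPKM ± 0.319 and Dll4 with 0.802 FPKM ± 0.302 (SD, n = 6). Notch4 and Dll1 overlapped in range, as did Dll1 and Dll4. Notch4 was above Dll1 in 6 of the 6 samples, and Dll1 above Dll4 in 4. The targets Hes5, Hey1 and Hes1 thus held the top of the order and the Delta-like ligands the bottom, as the plot of FPKM by gene shows.

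**Figure D1:**
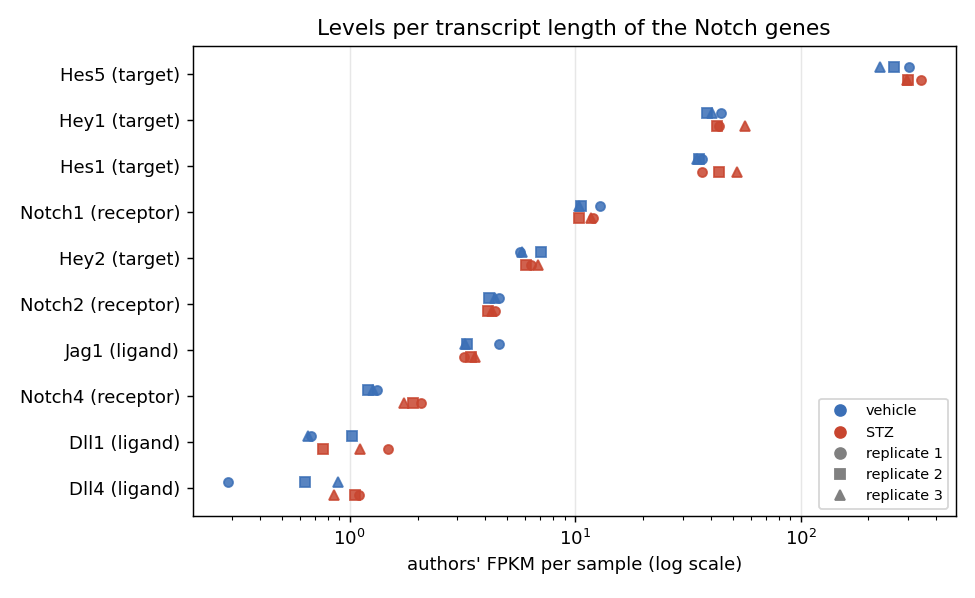
FPKM of the 10 Notch genes in each of the 6 samples on a log axis, with genes ordered by mean and vehicle (blue) drawn above STZ (red). Hes5 lies between 225 and 341 FPKM, and Dll4 between 0.287 and 1.10 FPKM.

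Comparisons between the groups used read counts scaled to library size by the TMM method (normalized CPM). Notch1, the receptor best known from neural progenitors (NCBI gene 18128, chr2:26457902-26503822, GRCm38), had 133, 109 and 107 normalized CPM in vehicle replicates 1, 2 and 3, and 118, 102 and 118 in STZ replicates 1, 2 and 3. The groups overlapped, with vehicle replicate 1 the highest sample, and the log2 fold change of STZ over vehicle was -0.05 (standard error 0.106, edgeR adjusted p = 0.895), or 0.06 without vehicle replicate 1 and 0.02 without STZ replicate 2. Notch2, a receptor also present in many tissues (NCBI gene 18129, chr3:98013538-98150367), had 52.8, 47.2 and 50.3 normalized CPM with vehicle and 48.0, 44.7 and 47.3 with STZ. Its groups overlapped as well, with a log2 fold change of -0.10 (standard error 0.0732, edgeR adjusted p = 0.622) that was -0.16 without vehicle replicate 2.

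Notch4, a receptor known mainly from endothelial cells, had 9.62, 8.79 and 9.20 normalized CPM in the vehicle samples and 14.1, 13.3 and 12.2 in the STZ samples. Every STZ sample was above every vehicle sample, which held for 1 of the 10 genes and for 8.64% of all genes tested. The reverse, every STZ sample below every vehicle sample, held for 0 of the 10 and for 9.85% of all genes, so that 18.5% of all genes had groups apart in either direction. The counts behind these values were 516, 456 and 527 reads with vehicle and 858, 773 and 717 with STZ, and no other RefSeq gene overlaps Notch4 (NCBI gene 18132, chr17:34564286-34588543). Notch4 was 1.44-fold higher in STZ, or 0.52 on the log2 scale (standard error, SE, 0.122, edgeR unadjusted p = 0.00305 and adjusted p = 0.261). DESeq2 gave it an adjusted p of 0.0199, a value under 0.05 that 1.71% of all genes reached, and the fold stayed under 1.5. Leaving out single samples gave Notch4 log2 fold changes between 0.47 and 0.58. Its share of the summed FPKM of the 4 receptors, Notch3 included, was 6.39%, 7.00% and 7.30% in the vehicle samples and 10.04%, 10.6% and 9.03% in the STZ samples. The share averaged 6.90% ± 0.462 with vehicle and 9.90% ± 0.810 with STZ (SD, n = 3).

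**Figure D2:**
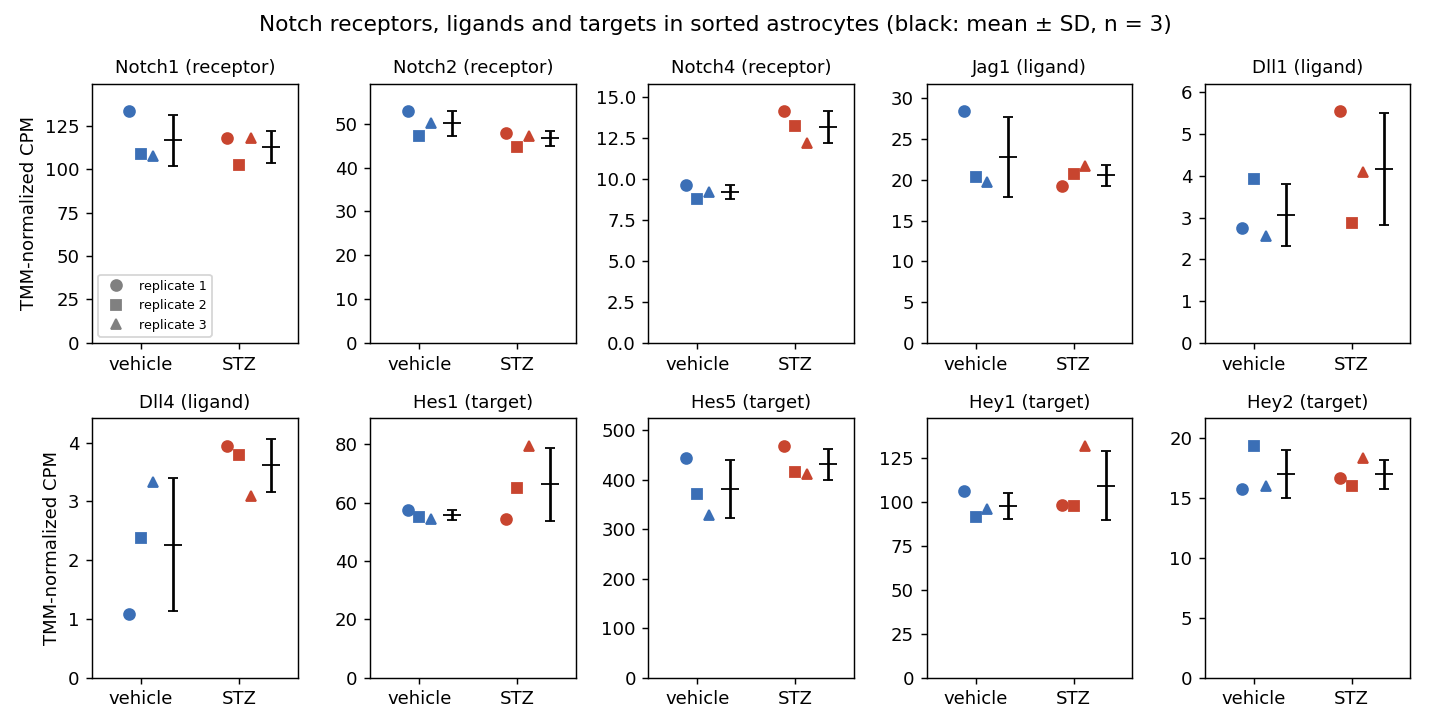
Normalized CPM of each Notch gene in the 3 vehicle (blue) and 3 STZ (red) samples, with replicate numbers as symbols and the mean ± SD in black; each axis starts at 0. Notch4 is the panel in which the groups do not overlap, at 8.79 to 9.62 with vehicle and 12.2 to 14.1 with STZ.

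Among the ligands, Jag1, of the Jagged family (NCBI gene 16449, chr2:137081451-137116520), had 28.4, 20.3 and 19.7 normalized CPM with vehicle and 19.2, 20.8 and 21.7 with STZ. Vehicle replicate 1 was apart from the other 5 samples, and the log2 fold change of -0.15 (standard error 0.153, edgeR adjusted p = 0.742) turned to 0.04 without it and was -0.26 without vehicle replicate 3. Dll1, a Delta-like ligand expressed by neural progenitors (NCBI gene 13388, chr17:15367354-15376932), had 2.74, 3.91 and 2.55 normalized CPM with vehicle and 5.54, 2.87 and 4.09 with STZ. The groups overlapped, and the log2 fold change of 0.44 (standard error 0.298, edgeR adjusted p = 0.600) was 0.18 without STZ replicate 1, the highest sample. Dll4, a Delta-like ligand of arterial and sprouting endothelium (NCBI gene 54485, chr2:119325784-119335666), had 1.08, 2.37 and 3.33 normalized CPM with vehicle and 3.94, 3.80 and 3.10 with STZ. Vehicle replicate 3 was above STZ replicate 3, and the vehicle samples were spread over 3.09-fold in FPKM. The log2 fold change of Dll4 was the largest of the 10 at 0.67, with the largest standard error as well (0.383, edgeR adjusted p = 0.542). It was 0.34 without vehicle replicate 1 and 1.06 without vehicle replicate 3 (edgeR unadjusted p = 0.0265).

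The target genes are the part of the pathway that reads out receptor activity. Of the 4, 0 had an unadjusted p under 0.05 with DESeq2 and 0 with edgeR, against 11.3% of all genes with edgeR. A count over 4 genes is too small to show that Notch targets were unchanged. Nrarp, also induced by Notch and described below, was higher in STZ and under this value with both tests. Of 3 further Hes and Hey factors tested, 2 had positive log2 fold changes and 1 a negative one. Among them Heyl, at 0.35, was under this value with DESeq2 but not with edgeR. Hes5, a repressor that holds back neuronal differentiation (NCBI gene 15208, chr4:154960626-154962372), had 445, 371 and 329 normalized CPM with vehicle and 468, 415 and 413 with STZ. Vehicle replicate 1 lay within the STZ range and the other vehicle samples below it. The log2 fold change was 0.18 (standard error 0.121, edgeR adjusted p = 0.601), and it ranged from 0.07 without vehicle replicate 3 (edgeR unadjusted p = 0.600) to 0.30 without vehicle replicate 1 (edgeR unadjusted p = 0.0161). Hes1, a repressor of the same kind used in many tissues (NCBI gene 15205, chr16:30065357-30067796), had 57.6, 55.1 and 54.2 normalized CPM with vehicle and 54.4, 65.0 and 79.3 with STZ. STZ replicate 1 lay at the level of the vehicle samples and the other STZ samples above it, so that the STZ group was more spread (66.2 ± 12.5 against 55.6 ± 1.75, SD, n = 3). Its log2 fold change of 0.25 (standard error 0.130, edgeR adjusted p = 0.509) was 0.10 without STZ replicate 3 and 0.38 without STZ replicate 1 (edgeR unadjusted p = 0.00930).

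Hey1, a Hey family repressor (NCBI gene 15213, chr3:8663359-8667038), had 106, 91.7 and 96.1 normalized CPM with vehicle and 98.4, 97.9 and 132 with STZ. Only STZ replicate 3 lay above the vehicle range. The log2 fold change of 0.16 (standard error 0.128, edgeR adjusted p = 0.662) was 0.0024 without it and 0.10 without vehicle replicate 2. Hey2, a factor known from heart and arterial development (NCBI gene 15214, chr10:30832359-30842783), had 15.7, 19.3 and 16.0 normalized CPM with vehicle and 16.6, 16.0 and 18.3 with STZ. The group means of Hey2 were 17.0 ± 2.01 and 17.0 ± 1.21 (SD, n = 3), with a log2 fold change of -0.0018 (standard error 0.121, edgeR adjusted p = 0.997). For Hes1 and Hey1 the highest sample was STZ replicate 3, whereas Hes5 was highest in STZ replicate 1, so the targets did not share an order of samples.

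Because Notch4 and Dll4 are expressed in vessels, the markers of vascular cells were set beside them. In these pooled cells, more cells of a type and more RNA per cell cannot be told apart. All 15 endothelial markers had positive log2 fold changes (median 1.14), and none was at 0 in any sample. Of them 13 had an edgeR unadjusted p under 0.05, against 5.63% of all genes tested as higher. Groups did not overlap for 8, against 8.64% of all genes as higher. The summed level of the 15 markers was 38.3, 56.3 and 135 FPKM in the vehicle samples and 260, 195 and 140 FPKM in the STZ samples. The 8 mural markers summed to between 22.3 and 28.8 FPKM with vehicle and between 37.8 and 48.7 FPKM with STZ. Of them 4 (Acta2, Tagln, Myh11 and Rgs5) had an edgeR unadjusted p under 0.05 as higher in STZ, against 5.63% of all genes. Acta2 lay between 5.67 and 8.88 FPKM with vehicle and between 15.9 and 21.2 FPKM with STZ. Log2 fold changes were positive for 7 of the 8, and that of Pdgfrb was -0.08. The 5 arterial endothelial markers summed to between 4.06 and 7.10 FPKM with vehicle and between 6.49 and 7.73 FPKM with STZ, where the groups overlapped and Sema3g was listed at 0 in 1 sample. The 10 astrocyte markers summed to between 6085 and 7071 FPKM with vehicle and between 6395 and 7018 FPKM with STZ. Of these, 1 was higher and 2 were lower at an edgeR unadjusted p under 0.05, with log2 fold changes of 0.27 for Gjb6, -0.48 for Aqp4 and -0.22 for Aldh1l1. The shares over all genes were 5.63% and 5.65%. Groups were apart for 1 as higher and for 3 as lower, against 8.64% and 9.85% of all genes.

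Dll4 had the same order as the endothelial sum within each group. It had 0.287, 0.633 and 0.887 FPKM in vehicle replicates 1, 2 and 3, and 1.10, 1.05 and 0.849 FPKM in STZ replicates 1, 2 and 3. Vehicle replicate 3 and STZ replicate 3, whose endothelial sums were 135 and 140 FPKM, had 0.887 and 0.849 FPKM of Dll4. For Notch4 the same 2 samples had 1.27 and 1.75 FPKM. Within the vehicle group the endothelial sum was spread over 3.53-fold and Notch4 over 1.09-fold, while in the STZ group both were highest in replicate 1 and lowest in replicate 3. With the mean log2 CPM of the 15 endothelial markers as a further term in the edgeR fit, the log2 fold change was 0.47 for Notch4 (standard error 0.213, edgeR unadjusted p = 0.0629) and -0.23 for Dll4 (standard error 0.420). In the same fit that of Hes1 was 0.47 (standard error 0.188, edgeR unadjusted p = 0.0419), and those of Jag1 and Notch1 were positive, at 0.21 and 0.13. The endothelial term was 1.67, 2.04 and 3.23 in vehicle replicates 1, 2 and 3, and 4.01, 3.70 and 3.20 in STZ replicates 1, 2 and 3. It thus ran partly with treatment, and with 3 samples per group the fit cannot cleanly tell them apart. The part of endothelial and of mural cells in these values was not tested.

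**Figure D3:**
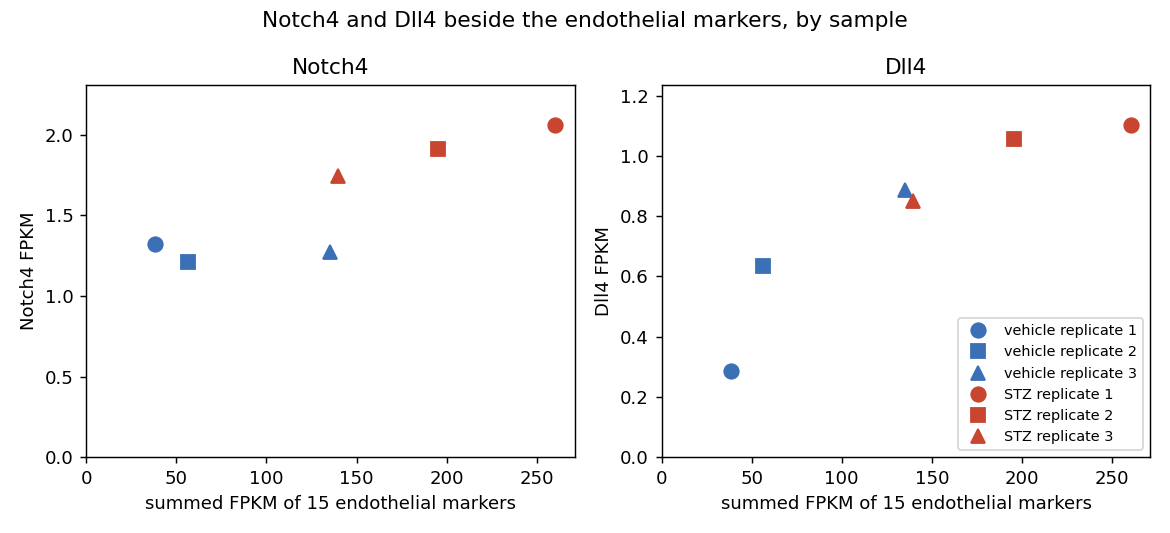
FPKM of Notch4 (left) and Dll4 (right) against the summed FPKM of 15 endothelial markers, 1 point per sample, vehicle in blue and STZ in red. At sums of 135 and 140 FPKM, vehicle replicate 3 and STZ replicate 3 have 1.27 and 1.75 FPKM of Notch4, and 0.887 and 0.849 FPKM of Dll4. The part of endothelial cells in either gene was not tested.

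Samples also differed in the markers of further cell types. Vehicle replicate 1, highest for Notch1 and Jag1, had the lowest summed level of the 7 choroid plexus and ependyma markers, at 4305 FPKM against 6994 to 12918 FPKM in the other 5 samples. Most of that sum was the marker Ttr, at 4141 FPKM in vehicle replicate 1. Kl and Otx2 were lowest in STZ replicate 2, and the remaining markers were, like Ttr, lowest in vehicle replicate 1. STZ replicate 1, highest for Dll1, had the highest summed level of the 7 neural progenitor and neuroblast markers, at 61.5 FPKM against 31.5 to 50.6 FPKM in the others, of which vehicle replicate 1 was the lowest. The 7 oligodendrocyte lineage markers summed to 805 FPKM in vehicle replicate 1 and 1085 FPKM in STZ replicate 1, against 329 to 451 FPKM in the other samples. The microglia markers summed to between 241 and 352 FPKM with vehicle and between 248 and 344 FPKM with STZ, and the neuron markers to between 11.3 and 22.9 FPKM over all samples. Their part in the Notch genes was not tested.

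The wider pathway was followed through 51 further genes, of which 50 were tested. Hes3 was left out, with 9 reads in vehicle replicate 1, 13 in STZ replicate 1 and 0 in the others. At an edgeR unadjusted p under 0.05 stood 9 of the 50 genes, or 18.0% against 11.3% of all genes tested, with 3 higher and 6 lower in STZ. After adjustment 0 passed with edgeR, and DESeq2 placed Dlk1 past the adjusted threshold and the fold of 1.5. Groups were apart for 12 of the 50 genes against 18.5% of all genes tested, with 4 higher against 8.64% and 8 lower against 9.85%. The median log2 fold change of the 50 genes was -0.04.

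Dlk1, an atypical Delta-like protein that lacks the domain by which canonical ligands bind the receptor, differed most. It had 3.45, 2.52 and 2.20 normalized CPM with vehicle and 10.3, 5.89 and 8.10 with STZ. The groups did not overlap, and Dlk1 was 2.97-fold higher in STZ, or 1.57 on the log2 scale (SE 0.272, edgeR adjusted p = 0.170, DESeq2 adjusted p = 3.4e-06). The log2 fold change lay between 1.36 and 1.77 with each sample left out, and at 1.86 with the endothelial term. Dlk1 (NCBI gene 13386, chr12:109452485-109463336) was low, at 0.849 ± 0.211 FPKM in the vehicle samples and 2.89 ± 0.755 FPKM in the STZ samples (SD, n = 3). Of the other 5 genes in this group, Notch3 gave a log2 fold change of 0.15 (SE 0.171, edgeR adjusted p = 0.782), with 0.03 without STZ replicate 1 and 0.31 without vehicle replicate 1. Among these 5 genes, 0 had an unadjusted p under 0.05 with edgeR, against 11.3% of all genes. The ligand Jag2, with groups that overlapped, was under it with DESeq2 (unadjusted p = 0.0337). Its edgeR log2 fold change was 0.82 (SE 0.439), and -0.49 with the endothelial term.

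Among the 9 genes of receptor turnover and inhibition, 1 was higher and 2 were lower at an edgeR unadjusted p under 0.05, against 5.63% and 5.65% of all genes. Nrarp, itself induced by Notch and an inhibitor of the freed receptor, had 212, 174 and 162 normalized CPM with vehicle and 230, 216 and 224 with STZ. Its groups did not overlap, with a log2 fold change of 0.29 (standard error 0.106, edgeR unadjusted p = 0.0262 and adjusted p = 0.390). Dtx3, of the Deltex family of ubiquitin ligases, had 206, 192 and 184 normalized CPM with vehicle and 158, 153 and 152 with STZ. The groups did not overlap, and the log2 fold change was -0.33 (standard error 0.0693, edgeR adjusted p = 0.227, DESeq2 adjusted p = 0.0388), and Dtx3 overlaps another gene. Dtx4, of the same family, gave a log2 fold change of -0.29 (SE 0.109, edgeR adjusted p = 0.402), which was -0.11 with the endothelial term. Dtx4 gave -0.18 without vehicle replicate 1. For Nrarp the log2 fold change was 0.52 with the endothelial term and 0.20 without vehicle replicate 3.

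Of 10 genes for cleavage, 8 had negative log2 fold changes, as had 10737 of all 22337 genes tested, and 2 of the 8 had an edgeR unadjusted p under 0.05, against 5.65% of all genes as lower. Ncstn, a subunit of gamma-secretase, had 138 ± 4.23 normalized CPM in the vehicle samples and 119 ± 4.62 in the STZ samples (SD, n = 3), which on the log2 scale is a fold change of -0.22 (SE 0.0655, edgeR adjusted p = 0.326). Adam17, a metalloprotease, had 53.3 ± 3.52 and 44.7 ± 3.12 normalized CPM in the 2 groups (SD, n = 3) and gave a log2 fold change of -0.25 (SE 0.0844, edgeR adjusted p = 0.356). Among the 5 genes for glycosylation of the receptors, Rfng, a Fringe glycosyltransferase, had 104 ± 7.22 normalized CPM in the vehicle samples and 86.3 ± 4.39 in the STZ samples (SD, n = 3), which on the log2 scale is a fold change of -0.26 (SE 0.0783, edgeR adjusted p = 0.322), which was -0.09 with the endothelial term. Lfng, the related Lunatic fringe, gave a log2 fold change of -0.18 (SE 0.171, edgeR adjusted p = 0.717), with -0.03 without vehicle replicate 1 and -0.35 without STZ replicate 1. The groups of Ncstn, Adam17, Rfng and Dtx4 did not overlap in level, and Ncstn and Adam17 share part of their position with other genes.

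In the nucleus, Rbpj had 17.0, 17.7 and 17.8 normalized CPM with vehicle and 17.1, 17.6 and 17.6 with STZ, and its log2 fold change was -0.0033 (standard error 0.0889, edgeR adjusted p = 0.991). Cir1, a co-repressor that binds Rbpj, gave a log2 fold change of 0.25 with groups that overlapped, and was chosen after its values were seen. Heyl, a Hey family factor, gave a log2 fold change of 0.35 (SE 0.158, edgeR adjusted p = 0.461), with 0.22 without vehicle replicate 2 and 0.56 without vehicle replicate 1 (edgeR unadjusted p = 0.000307).

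**Figure D4:**
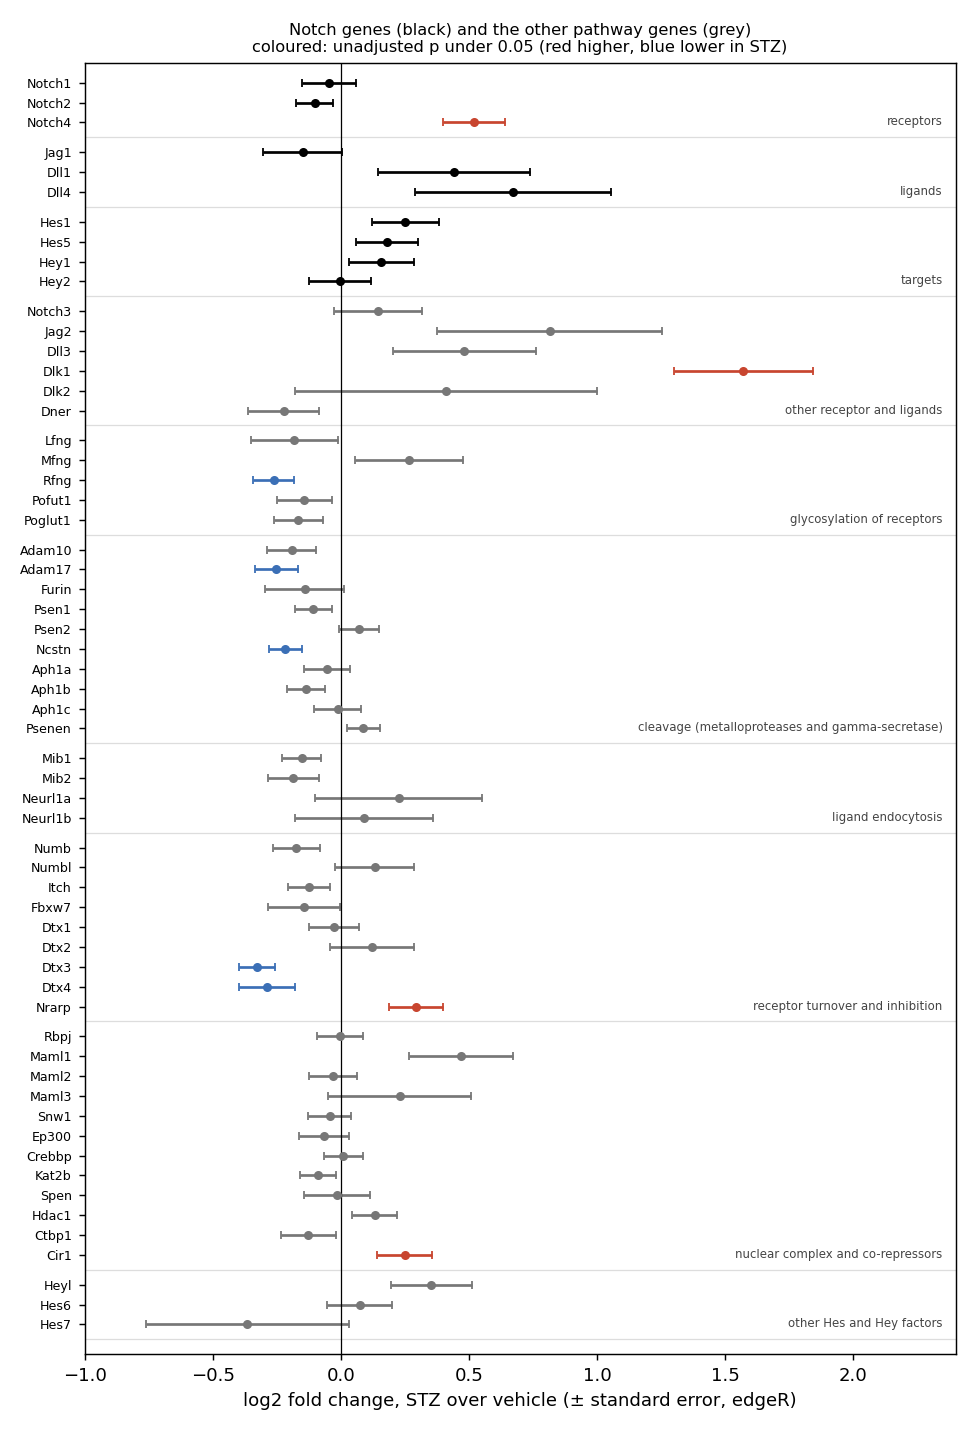
Log2 fold change of STZ over vehicle, with a standard error derived from the edgeR test, for the 10 Notch genes (black) and the other pathway genes shown (grey), grouped by role. Red and blue mark genes with an unadjusted p under 0.05, higher and lower in STZ, from Dlk1 at 1.57 to Dtx3 at -0.33.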

How the data were processed

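RNA of 3 vehicle and 3 STZ samples was sequenced after SMART-Seq library preparation, and groups were taken from the treatment labels. Reads had been mapped by the authors with HISAT2 2.1.0 (mm10) and summarised per gene with StringTie 2.1.3b, versions as in the submitters' processing notes. The annotation is not given in the sources used here. The deposited read counts are whole numbers without normalization. The deposited FPKM values are fragments scaled to transcript length and mapped reads, and the deposited TPM values are scaled to the same sum in every sample. Total counts ranged from 52529048 to 58749115 per sample, and 3 counts corresponded to 0.0511 to 0.0571 CPM, a floor that covers counting error only. No 2 samples held identical values.

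The 22337 genes with a count in every sample, the filter of the study's methods, entered the quasi-likelihood test of edgeR 4.0.16 under R 4.3.3, with TMM scaling and treatment as the factor; p-values were two-sided and adjusted by the Benjamini-Hochberg method over these genes. Alternatives were DESeq2 1.42.0, the tool of the study's methods, its size factors in edgeR, other filters, the replicate number as a block, limma 3.58.1 on log2(TPM + 1) and log2(TPM + 0.1), the endothelial markers as a covariate, other thresholds, and each sample left out in turn. The p-values measure the spread between samples, each a pool of 3 mice. edgeR's test reports no standard error, so those given are the absolute log2 fold change divided by the square root of the test's F statistic. A removal of outlier genes that the study's methods mention without detail was not repeated. Procedures were tested on simulated data. The members and gene lists were chosen with earlier results of these data known. Named genes were the 10 members, the pathway genes at an unadjusted p under 0.05 without overlap between groups, and Notch3, Rbpj, Lfng and Heyl. Cir1 and Jag2, whose groups overlapped, Gjb6, Aqp4, Aldh1l1, Acta2, Tagln, Myh11, Rgs5, Pdgfrb, Ttr, Kl and Otx2 are named outside this rule, after their values were seen. The counts of pathway genes include 1 gene that is not reported here. Positions are from RefSeq GRCm38.p6, the assembly behind mm10, to which 45679 genes matched by NCBI gene number. No source states strand-specific counting, and 5 of the 10 members (Notch1, Notch2, Dll4, Hey1 and Hey2) overlap another gene.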

Additional observations from a re-analysis of the deposited data

How the results depend on the processing

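Under every alternative run, other thresholds included, 0 of the 10 Notch genes passed the adjusted threshold with its fold limit. Notch4 passed it without the fold limit in DESeq2 (adjusted p = 0.0199). Over all genes, 234 passed with DESeq2, 5 to 7 with its size factors in edgeR or other filters, and 0 or 1 with a sample left out. With the replicate block, the limma fits and the endothelial covariate, 0 of all genes passed. Those fits therefore could not set the Notch genes apart from the rest. The number at an unadjusted p under 0.05 was 1 in the reported fit and 1 to 2 with each sample left out in turn. Notch4 was this gene, or 1 of the 2, in every alternative but the endothelial covariate, where Hes1 took its place. Among the other pathway genes 9 were under this value, 6 to 10 with a sample left out, and 4 with the endothelial covariate. That fit has fewer residual degrees of freedom and a term that itself differed between the groups. It left 916 of all genes under this value, against 2519 in the reported fit and 1793 with the replicate block. Dlk1 was under an unadjusted p of 0.05 in all 14 alternatives. The sign of Hey2 turned with the replicate block (0.0023), limma on log2(TPM + 1) (0.014) and on log2(TPM + 0.1) (0.015), the endothelial covariate (0.10) and 3 left-out samples (range -0.060 to 0.088 over all 6). With the endothelial covariate the log2 fold changes of Notch1 (0.13), Jag1 (0.21) and Dll4 (-0.23) turned as well. Without single samples, the log2 fold change of Notch1 ranged from -0.12 to 0.058 and that of Jag1 from -0.26 to 0.037. The cause was not tested.

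Same-numbered vehicle and STZ samples did not deviate together from their group means (correlations across genes of -0.10, -0.16 and -0.18), so the numbers were not taken to pair the samples. With the replicate block, 0 of the 10 Notch genes passed in edgeR, as did 0 of all 22337 genes tested. Under an unadjusted p of 0.05 stood 1 of the 10, against 1793 of all genes. The same held for 9 other pathway genes, with Heyl among them and without Cir1.

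At 58 to 239 reads per sample for Dll4 and 146 to 336 for Dll1, counting error adds to the spread of these low ligands.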
